A study of Mus musculus with 21 samples.

Results

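Hepatocyte nuclear factor 4 alpha (Hnf4a) was mapped by chromatin immunoprecipitation and sequencing in 3 kinds of hepatocyte-like (iHep) cells that differ in the Foxa protein used to make them. The members are all peaks of the 3 deposited lists: the Foxa1 line has 1580, the Foxa2 line 2485 and the Foxa3 line 2506. These 6571 peaks are part of 53537 in the 13 lists of the series, which has 21 samples with 8 inputs among them. Every group compared here started from C57BL/6 mouse embryonic fibroblasts, taken at 13.5 days post coitum. Each of them received a retrovirus for Hnf4a together with one for Foxa1, Foxa2 or Foxa3. A further 48-hour Foxa3 list, marked del2 in its title, was not among the groups compared. Hnf4a made from the retrovirus and from the cells' own gene cannot be told apart. The labels do not say whether a line was cloned. Each group is 1 library. For comparison, Foxa peaks of the same iHep lines, and Foxa and Hnf4a peaks of fibroblasts 48 hours after the same pairs of factors were introduced, were used (1 library each). The titles of the Hnf4a lists carry the code R225 for the Foxa1 line, R242 for the Foxa2 line and R170 for the Foxa3 line. Their replicate numbers are 1, 1 and 3. The iHep Foxa1 and Foxa3 lists have the code of their line's Hnf4a list, but the iHep Foxa2 list has R215. Peak names begin with F3_8r_p7 for the Foxa1 line, with F2_9r_p6 for the Foxa2 line and with F1_9r_p3 for the Foxa3 line. The labels do not explain these codes, so line and code cannot be told apart. The labels give mouse embryonic fibroblasts as the cell type of these samples, with iHep as the stage, and a peak list holds no marker expression to check this by.

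Hnf4a is a nuclear receptor that binds DNA as a homodimer at direct repeats, and in the liver it maintains genes of lipid, bile acid and plasma protein metabolism. Foxa1, Foxa2 and Foxa3 are forkhead proteins that can bind nucleosomal DNA and share a closely related DNA-binding domain. In the liver, Hnf4a and Foxa proteins are often found at the same enhancers. The comparison asks how far Hnf4a sites depend on which Foxa protein accompanied it.

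The deposited score of a peak is the authors' value, and no label or header defines it. It was used to rank peaks within a list. Scores are printed as deposited, and their levels are not read as differences in binding between lists. The files hold no read numbers, and library depth is unknown. Shares carry a 95% Wilson interval that covers counting error only. With 1 library per group there is no replicate spread, and no difference between lines has a p-value. Positions are on mm9, counted from 1. The tables at hand for gene positions are on a later build, so sites are given by position and no gene, exon or promoter is assigned to them.

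Hnf4a peaks differed in width between the lines, with the Foxa3 line narrowest. The Foxa1 line had a median width of 308.5 bp, the Foxa2 line 361 bp and the Foxa3 line 205 bp. The middle 50% of widths ran from 241 to 398 bp, from 300 to 452 bp and from 169 to 278 bp in the same order. Every list had a sharp lower edge. The narrowest width was 200 bp for the Foxa1 line (95 peaks of exactly that width), 272 bp for the Foxa2 line (303 peaks) and 156 bp for the Foxa3 line (260 peaks). The lower edges thus fall in the same order as the medians, and the part of the edge in the medians was not tested. Peaks over 1 kb numbered 0, 21 and 3. The widest peak of the Foxa2 line spanned 29305 bp near the start of chromosome 9, and the widest of the Foxa1 and Foxa3 lines spanned 888 and 1646 bp. Peaks covered 530 kb in all for the Foxa1 line, 1028 kb for the Foxa2 line and 612 kb for the Foxa3 line. The Foxa3 line thus had slightly more peaks than the Foxa2 line on a much smaller total length.

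Scores were spread differently within the lists. Foxa1-line peaks had a median score of 11.3 and a highest score of 79.1. The same values were 12.99 and 115 for Foxa2-line peaks, and 10.2 and 38.3 for Foxa3-line peaks. The highest 5% of scores began at 24.7, 35.5 and 17.7. Divided by the median of the list, these bounds were 2.19, 2.73 and 1.74, lowest in the Foxa3 line. Scores of separate lists may not share a scale. Within a list, width and score went together in the Foxa1 line (Spearman's rho 0.58 across 1580 peaks) and the Foxa2 line (0.59 across 2485 peaks). In the Foxa3 line the relation was weak (0.20 across 2506 peaks). Peaks of a list share a library, so these values describe the lists only.

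Closely spaced peaks were more frequent in the Foxa3 line than in the other iHep Hnf4a lists. There, 774 of 2506 peaks (30.9%, interval 29.1% to 32.7%) had a neighbour of the same list within 500 bp, edge to edge. Of 1580 Foxa1-line peaks 35 did so (2.22%, 1.60% to 3.07%), and of 2485 Foxa2-line peaks 71 (2.86%, 2.27% to 3.59%). The Foxa2 value was 1.56% without runs of peaks and 1.71% with lists of equal length, and the Foxa3 line stayed highest under both. Neighbouring peaks of the Foxa3 line had a median gap of 165 kb. Of its 494 pairs of neighbouring centres within 1 kb, most lay 200 to 600 bp apart. In that line 143 pairs lay 200 to 400 bp apart and 204 pairs 400 to 600 bp apart. The counts were 3 and 7 in the Foxa1 line and 2 and 8 in the Foxa2 line. Centres of peaks that do not overlap cannot be closer than the narrowest width of their list. That width is 272 bp in the Foxa2 line, so part of its 200 to 400 bp bin is closed. Between 1 and 2 kb the 3 lists were closer, with 16, 81 and 108 pairs.

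**Figure D1:**
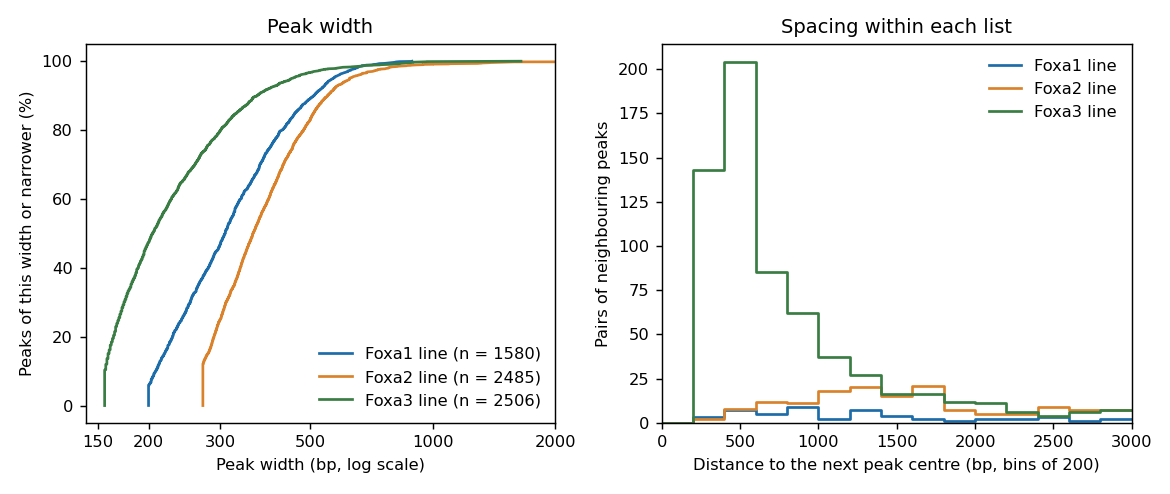
Left, the cumulative share of Hnf4a peaks by width (bp, log scale, shown up to 2000 bp) in each iHep line. Right, the number of neighbouring peak pairs by the distance between their centres, in bins of 200 bp. The Foxa3 line is shifted to narrow widths (median 205 bp) and has 204 pairs at 400 to 600 bp, where the other lines have 7 and 8.

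Groups of peaks whose centres followed each other within 1 kb held 861 peaks of the Foxa3 line (34.4%), 47 of the Foxa1 line (2.97%) and 61 of the Foxa2 line (2.45%). In the Foxa3 line these were 281 groups of 2 peaks, 57 of 3 peaks and 29 of 4 or more, with 6 peaks in the largest. Joining peaks within 500 bp reduced the Foxa3 list from 2506 to 2070 sites, the Foxa1 list from 1580 to 1562 and the Foxa2 list from 2485 to 2447. After this joining the Foxa3 line held fewer sites than the Foxa2 line.

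The grouped peaks of the Foxa3 line were shared with the other lines more often than its single peaks. Of the grouped peaks 28.2% (25.3% to 31.3%) overlapped a Foxa1-line Hnf4a peak, against 17.5% (15.7% to 19.4%) of the 1645 single peaks. For the Foxa2 line the shares were 33.8% (30.7% to 37.0%) and 22.4% (20.4% to 24.4%). Overlap with the line's own iHep Foxa3 peaks was 37.0% (33.9% to 40.3%) for grouped and 38.1% (35.7% to 40.4%) for single peaks, with overlapping intervals. Grouped and single peaks had median scores of 10.5 and 10.01 and median widths of 221 and 198 bp. Some wide peaks of another line lay over several Foxa3-line peaks. Of the 462 Foxa1-line peaks that met a Foxa3-line peak, 69 met 2 or more (14.9%), and of 560 Foxa2-line peaks 94 did (16.8%).

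Close spacing was also seen in other lists of the series. In the iHep Foxa3 list, also R170, 58.2% of 12661 peaks had a neighbour within 500 bp. The iHep Foxa1 list had 0.873% and the iHep Foxa2 list 2.23%. In the 48-hour Foxa3 list, with another code, the share was 14.5%. All 3 Hnf4a lists of 48 hours, which have other codes and 418, 453 and 370 peaks, had higher shares than the Foxa3 line, at 52.4% with Foxa1, 48.1% with Foxa2 and 45.9% with Foxa3. Peaks of these 48-hour Hnf4a lists were narrower than those of the iHep lists, with median widths of 87, 89 and 93.5 bp in that order. Close spacing was thus seen in lists of unlike length and width, and its source was not tested.

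Sites were next compared between the lines, by overlap of at least 1 bp. The Foxa1 and Foxa2 lines had the most in common, and the Foxa3 line was set apart from both. Of the Foxa1-line peaks 978 of 1580 (61.9%, 59.5% to 64.3%) overlapped a Foxa2-line peak and 462 (29.2%, 27.1% to 31.5%) a Foxa3-line peak. Of the Foxa2-line peaks 971 of 2485 (39.1%, 37.2% to 41.0%) overlapped a Foxa1-line peak and 560 (22.5%, 20.9% to 24.2%) a Foxa3-line peak. Of the Foxa3-line peaks 531 of 2506 (21.2%, 19.6% to 22.8%) overlapped a Foxa1-line peak and 659 (26.3%, 24.6% to 28.1%) a Foxa2-line peak. For scale, of all 45724 peaks in the 6 Foxa lists, 2.60% overlapped an iHep Hnf4a peak of the Foxa1 line, 3.55% one of the Foxa2 line and 3.93% one of the Foxa3 line. Every share between Hnf4a lists was above these values. Of the pairs read from the Foxa1 or Foxa2 line, Foxa1-line peaks at the Foxa2 line had the highest share in 10 of 10 settings, the reported one included. With the 3 lists cut to 1580 peaks by score, 52.2% of Foxa1-line peaks lay at Foxa2-line peaks and 22.97% at Foxa3-line peaks, while 22.5% of Foxa2-line peaks lay at Foxa3-line peaks.

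Where the lines shared a site, the Foxa1 and Foxa2 lines placed it more precisely alike. The median distance between overlapping peak centres was 53 bp for these lines, 157 bp for the Foxa1 and Foxa3 lines and 177 bp for the Foxa2 and Foxa3 lines. Centres were within 200 bp in 95.3% of 979 overlapping pairs, 67.8% of 531 and 58.4% of 659. Grouped Foxa3-line peaks lay farther from the other centre than single ones. The medians were 176 bp and 132.5 bp at Foxa1-line peaks, and 202.5 bp and 158 bp at Foxa2-line peaks. Even the single peaks were thus farther off than the 53 bp of the other pair.

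Peaks that just missed an overlap were rare between the Foxa1 and Foxa2 lines and more frequent with the Foxa3 line. Allowing a gap of 500 bp raised the share of Foxa1-line peaks at the Foxa2 line from 61.9% to 62.5%. The same allowance raised Foxa3-line peaks at the Foxa2 line from 26.3% to 35.1%, and at the Foxa1 line from 21.2% to 29.2%. Within 10 kb the shares were 65.9%, 44.2% and 38.1% in that order. Foxa3-line peaks without an overlap lay a median of 104 kb from the nearest Foxa2-line peak and 150 kb from the nearest Foxa1-line peak. Near misses were thus few beside sites with no neighbour in the other line.

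Sharing rose with the score of the peak in all 6 directions. Of the highest scoring 25% of Foxa1-line peaks, 86.8% (83.1% to 89.8%) were at Foxa2-line peaks, against 46.1% (41.2% to 51.0%) of the lowest scoring 25%. Foxa2-line peaks at Foxa1-line peaks rose from 14.1% (11.6% to 17.1%) to 74.6% (71.0% to 77.8%). Foxa3-line peaks rose less, from 13.6% (11.1% to 16.5%) to 33.2% (29.6% to 37.0%) at the Foxa1 line and from 18.5% (15.7% to 21.7%) to 40.1% (36.3% to 43.98%) at the Foxa2 line. In the highest scoring 25% of Foxa3-line peaks, more than 50% thus had no partner in each comparison. At the very top, 98 of the 100 highest Foxa1-line peaks met a Foxa2-line peak and 70 a Foxa3-line peak. Of the 100 highest Foxa2-line peaks 87 met a Foxa1-line peak and 59 a Foxa3-line peak. Of the 100 highest Foxa3-line peaks 56 met a Foxa1-line peak and 60 a Foxa2-line peak. Fewer belonged to the top 100 of both lists, with 35 for the Foxa1 and Foxa2 lines, 17 for the Foxa1 and Foxa3 lines and 18 for the Foxa2 and Foxa3 lines.

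**Figure D2:**
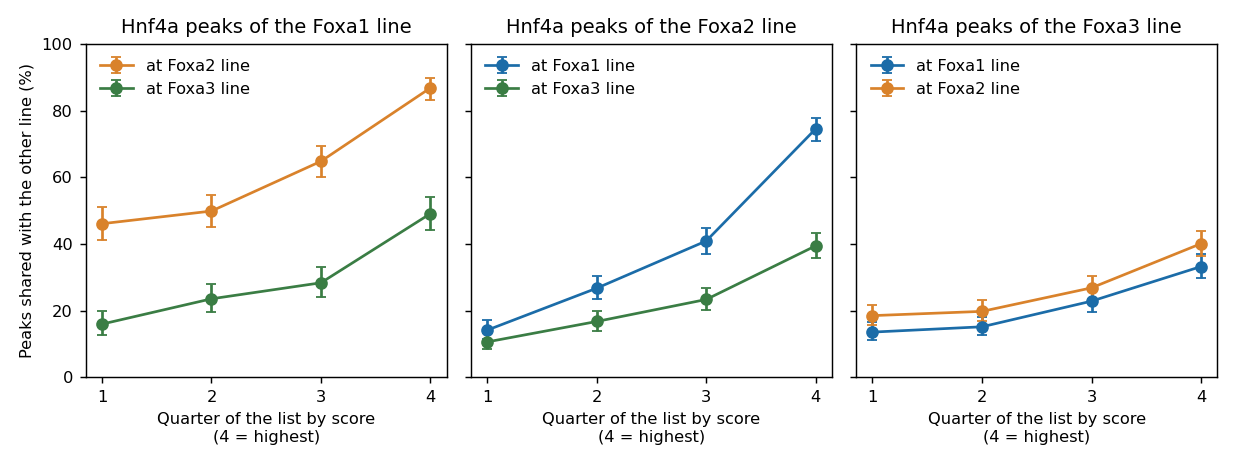
Share of Hnf4a peaks of each line that overlap a peak of another line (%), in 4 equal bins of the list by score from lowest (1) to highest (4), with 95% Wilson intervals as bars. All 6 curves rise, most steeply for Foxa2-line peaks at Foxa1-line peaks, from 14.1% to 74.6%.

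Merging overlapping peaks of the 3 lists gave 4813 regions, of which 3568 (74.1%) were held by 1 line and 1245 (25.9%) by 2 or 3. The Foxa3 line alone held 1728, the Foxa2 line alone 1330 and the Foxa1 line alone 510. Close peaks of a list count as separate regions unless a peak of another line joins them. Groups within 1 kb held 34.4% of Foxa3-line peaks, against 2.97% and 2.45% in the Foxa1 and Foxa2 lines. The part of this in the 1728 regions and in the 74.1% was not tested. The Foxa1 and Foxa2 lines together held 582, the Foxa2 and Foxa3 lines 184, the Foxa1 and Foxa3 lines 92, and all 3 lines 387. With the upper 50% of each list the regions of all 3 lines numbered 169. Of the 1580 Foxa1-line peaks 510 were found in no other line, but this is also the shortest list. With lists of equal length, 52.2% of Foxa1-line peaks lay at Foxa2-line peaks and 51.6% the other way round. At Foxa3-line peaks the shares were then 22.97% for the Foxa1 line and 22.5% for the Foxa2 line. At equal length the Foxa1 and Foxa2 lines were thus about equally separate.

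Regions of several lines ranked higher in each list than regions of 1 line. Ranks are given as a percentage of the list, with 0 the highest score. In the Foxa1 list the median rank was 26.8% for regions of all 3 lines, 44.6% for those shared with the Foxa2 line only, 53.5% for those shared with the Foxa3 line only and 67.2% for the rest. In the Foxa2 list the medians were 21.9%, 30.1% when shared with the Foxa1 line only, 48.7% with the Foxa3 line only and 65.3%. In the Foxa3 list they were 31.6%, 32.9% with the Foxa1 line only, 37.6% with the Foxa2 line only and 54.7%. The spread of medians was thus narrowest in the Foxa3 line. Of the 387 common regions, the Foxa3 line held 2 or more peaks in 83, the Foxa1 line in 5 and the Foxa2 line in 1.

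Ranks of shared regions went together moderately for the Foxa1 and Foxa2 lines and weakly for the other pairs. Across their 969 shared regions Spearman's rho of the scores was 0.36. It was 0.13 across the 479 regions shared by the Foxa1 and Foxa3 lines and 0.15 across the 571 shared by the Foxa2 and Foxa3 lines. The points are sites within a pair of libraries, not replicates. Across the 387 regions of all 3 lines, where each pair is judged on the same sites, the values were 0.44, 0.14 and 0.20. Across regions held by exactly the pair of lines they were 0.28 (582 regions), 0.06 (92 regions) and -0.03 (184 regions).

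The same order was seen in the best regions. Of the 241 shared regions in the highest 25% by score in the Foxa1 line, 111 (46.1%) were also in the highest 25% in the Foxa2 line. With the Foxa3 line the shares were 41 of 119 (34.5%) for the Foxa1 line and 51 of 142 (35.9%) for the Foxa2 line. Opposite ends also occurred. In the Foxa1 and Foxa2 pair 25 regions were in the highest 25% of the first and the lowest 25% of the second, and 28 the other way round, beside 241 in the highest 25%. The counts were 20 and 21 beside 119 for the Foxa1 and Foxa3 lines, and 22 and 31 beside 142 for the Foxa2 and Foxa3 lines, which are larger shares. The widths of overlapping peaks followed a like pattern, with a rho of 0.34, 0.14 and 0.13 for the pairs in the order above.

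**Figure D3:**
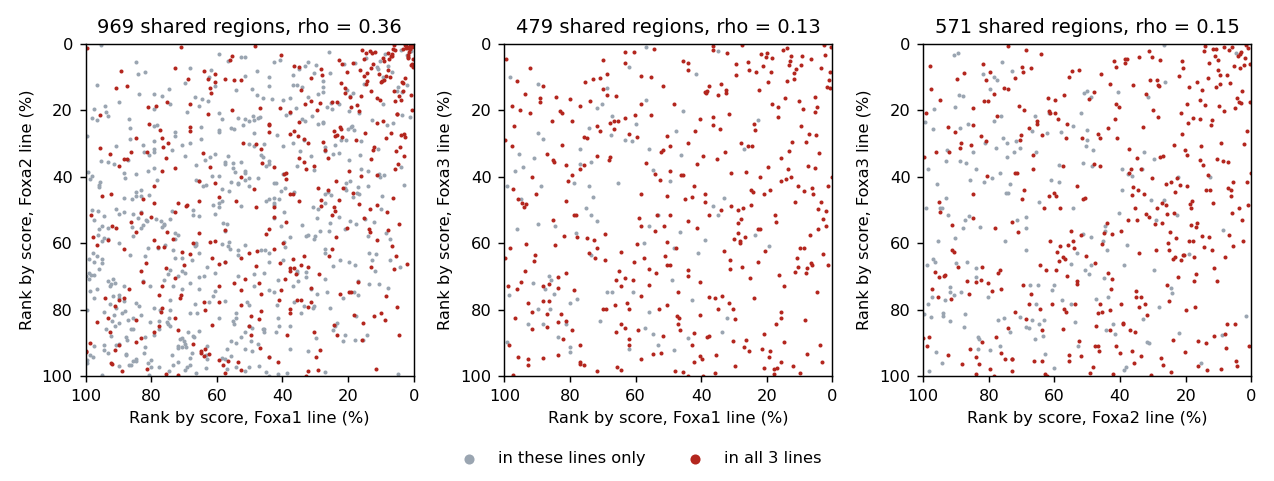
Rank by score of each shared region in both lines of a pair, as a percentage of the shared regions with the highest score at 0, upper right. Red points are regions of all 3 lines and grey points those of the pair only. The 969 regions of the Foxa1 and Foxa2 lines gather toward the upper right (rho 0.36), while the other pairs are nearly evenly scattered (0.13 and 0.15).

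Among the 387 common regions, 25 were in the highest 25% (96 regions) in every line, and 27 were in the upper 10% of each whole list. First by summed rank was a region of chromosome 4 at 141115501 to 141116691. The Foxa1 line ranked it 14 (score 33.5), the Foxa2 line 13 (68.9) and the Foxa3 line 1 (38.3), and it overlapped no Foxa peak of either stage. The next, on chromosome 14 at 60378697 to 60379529, ranked 13, 28 and 23 and overlapped 48-hour Foxa1 and Foxa2 peaks. A region on chromosome 6 at 85087100 to 85087841 ranked 2, 78 and 6 and overlapped Hnf4a peaks of all 3 lines at 48 hours and Foxa3 peaks of both stages. The other 2 of the 5, on chromosome 14 at 70457377 to 70458011 and chromosome 2 at 38341207 to 38341867, ranked 18, 16 and 57 and 59, 6 and 49. They also met no Foxa peak. So 3 of the 5 leading regions met none of the 6 Foxa lists. Of all 387 common regions 44.4% met an iHep Foxa peak, and the share for the 6 lists together was not computed. The 5 regions are too few to be set apart from the common regions as a whole.

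The best peaks of single lists did not always rank high elsewhere. The top peak of both the Foxa1 and Foxa2 lines, on chromosome 5 at 9040692 to 9041433 as a merged region, ranked 566 of 2506 in the Foxa3 line (score 12.9). The next peak of the Foxa2 line, on chromosome 17 at 84357991 to 84358544 (score 98.3), ranked 27 in the Foxa1 line and 211 in the Foxa3 line. The next peak of the Foxa3 line, on chromosome 6 at 137517681 to 137518111 (score 38.1), ranked 312 in the Foxa2 line and was in no Foxa1-line peak. The peak ranked 3 in the Foxa3 line, on chromosome 7 at 26022604 to 26023457 (score 36.1), met no iHep Hnf4a peak of the other lines. It overlapped Foxa3 peaks of both stages and 48-hour Hnf4a peaks of the Foxa2 and Foxa3 lines.

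Leading regions of fewer lines differed in rank. The best region of the Foxa1 and Foxa2 lines without the Foxa3 line, on chromosome 2 at 44775931 to 44776490, ranked 7 and 26 and met an iHep Foxa1 and an iHep Foxa2 peak. The best of the Foxa2 and Foxa3 lines, on chromosome X at 166527055 to 166527660, ranked 38 and 20. The best of the Foxa1 and Foxa3 lines, on chromosome 13 at 64445555 to 64446012, ranked only 314 and 12. Held by the Foxa1 line alone, the leader was on chromosome 5 at 115420958 to 115421445 with rank 24. For the Foxa2 line alone the 3 leaders, ranked 3, 5 and 10, all lay in blocks dense in 48-hour Hnf4a peaks, 2 of them on chromosome 2 from 98502260 to 98507617 and 1 on chromosome 9 at 2999897 to 3005364. These overlapped all 3 Hnf4a lists and all 3 Foxa lists of 48 hours. Such blocks numbered 3 and held 8, 11 and 5 of the iHep Hnf4a peaks of the Foxa1, Foxa2 and Foxa3 lines.

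Foxa proteins were found at these sites to unlike degrees. Of all 4813 regions 8.25% overlapped an iHep Foxa1 peak, 14.8% an iHep Foxa2 peak and 22.4% an iHep Foxa3 peak. Regions of the Foxa3 line alone met iHep Foxa3 peaks in 46.8% of cases (44.5% to 49.2%), while 1.62% (1.12% to 2.33%) met iHep Foxa1 and 5.09% (4.15% to 6.23%) iHep Foxa2 peaks. Regions of the Foxa1 and Foxa2 lines met iHep Foxa3 peaks in 3.78% (2.51% to 5.66%), while 15.8% (13.1% to 18.99%) met iHep Foxa1 and 26.6% (23.2% to 30.4%) iHep Foxa2 peaks. Regions of the Foxa2 line alone met iHep Foxa2 peaks in 16.3% (14.4% to 18.4%) and iHep Foxa1 peaks in 8.27% (6.91% to 9.87%). Regions of the Foxa1 line alone were at an iHep Foxa1 peak in 14.5% of cases (11.7% to 17.8%) and at an iHep Foxa2 peak in 18.6% (15.5% to 22.2%). The share was thus not higher for the line's own Foxa protein, but the iHep Foxa2 list is the longer one. Over all regions these shares were 8.25% and 14.8%. With centres within 200 bp, 31.0% of the Foxa3-only regions and 9.30% of the common regions (17.6% by overlap) met an iHep Foxa3 peak. The iHep Foxa lists differ in length, with 3435, 10330 and 12661 peaks, which was not corrected for. In the Foxa2 line alone, the Foxa and Hnf4a lists have different codes (R215 and R242), so its shares also compare codes. Any iHep Foxa peak was met by 37.1% of all regions. By class, the lowest shares were 21.6% (19.5% to 23.9%) of the Foxa2-only and 28.4% (24.7% to 32.5%) of the Foxa1-only regions. Regions of the Foxa1 and Foxa2 lines were at 31.4%, those of the Foxa1 and Foxa3 lines at 39.1% and those of the Foxa2 and Foxa3 lines at 44.02%. The common regions were at 44.4% (39.6% to 49.4%) and the Foxa3-only regions at 51.0% (48.6% to 53.3%). Region widths differ between the classes, with a median of 616 bp for common regions and 255, 326 and 196 bp for regions of the Foxa1, Foxa2 or Foxa3 line alone. A wider region meets a 1 bp overlap more easily, and the part of width in these shares was not tested.

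**Figure D4:**
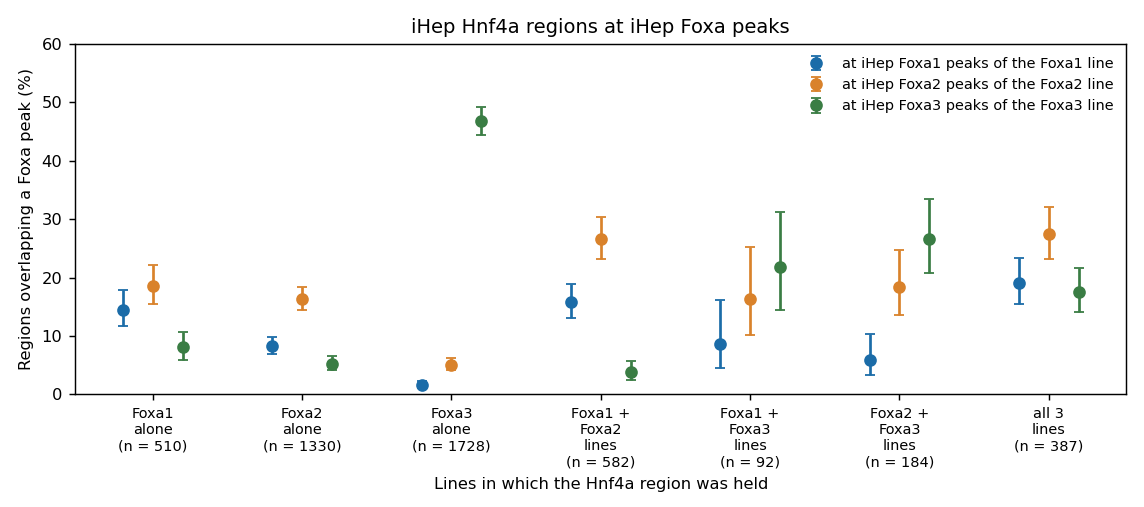
Share of iHep Hnf4a regions that overlap an iHep Foxa1, Foxa2 or Foxa3 peak (%), by the lines that hold the region, with 95% Wilson intervals as bars. Regions of the Foxa3 line alone stand at 46.8% for Foxa3, and regions of the Foxa1 and Foxa2 lines at 3.78%.

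Hnf4a peaks of the 48-hour stage were found at a larger share of the common regions, which are also the widest, than of regions held by 1 line. Of all 4813 regions 3.41% overlapped such a peak of the Foxa1 line, 2.74% one of the Foxa2 line and 1.87% one of the Foxa3 line. For the 387 common regions the shares in that order were 20.2% (16.5% to 24.4%), 10.6% (7.91% to 14.1%) and 5.68% (3.78% to 8.46%). Among regions of the Foxa3 line alone these shares were 0.174%, 0.926% and 0.521%. Foxa1-only regions met them in 1.57%, 0.588% and 0.588% of cases and Foxa2-only regions in 1.88%, 2.33% and 2.48%. Regions held by a pair of lines had lower shares than the common regions in all 3 lists, with overlapping intervals in some. Those of the Foxa1 and Foxa2 lines were at 6.19%, 4.30% and 2.41%. Those of the Foxa1 and Foxa3 lines were at 4.35%, 2.17% and 0% (0 of 92, interval up to 4.01%). Those of the Foxa2 and Foxa3 lines were at 5.43%, 7.61% and 4.89%.

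Hnf4a peaks were unevenly spread over the chromosomes, in a similar way in the 3 lines. Chromosome length was taken as the furthest peak end in any list. Peaks per Mb on the 19 autosomes ran from 0.482 on chromosome 1 to 0.837 on chromosome 11 in the Foxa1 line, and from 0.685 on chromosome 1 to 1.57 on chromosome 8 in the Foxa2 line. In the Foxa3 line they ran from 0.661 on chromosome 18 to 1.64 on chromosome 11. Across the 19 autosomes, Spearman's rho of peaks per Mb was 0.89 for the Foxa1 and Foxa2 lines, 0.75 for the Foxa1 and Foxa3 lines and 0.81 for the Foxa2 and Foxa3 lines. Against the iHep Foxa lists the profile of Hnf4a went with Foxa3 in every line, with a rho of 0.68 (Foxa1 line), 0.69 (Foxa2 line) and 0.81 (Foxa3 line). It did not go with the line's own Foxa protein in the Foxa1 line (-0.29) or the Foxa2 line (-0.19). The points are chromosomes, which differ in gene and base content in the same way for every list, and the part of this was not tested.

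Chromosome X held few Hnf4a peaks, and fewest in the Foxa3 line. It makes up 6.31% of the summed chromosome lengths and held 20 of 1580 peaks in the Foxa1 line (1.27%, 0.821% to 1.95%). Of 2485 Foxa2-line peaks 55 lay there (2.21%, 1.70% to 2.87%), and of 2506 Foxa3-line peaks 6 (0.239%, 0.110% to 0.521%). The interval of the Foxa3 line lies below both others. In the 6 Foxa lists 1.45% to 2.29% of peaks were on chromosome X, with the lowest value in the iHep Foxa3 list. The Hnf4a share of the Foxa3 line was below all of these. None of the 387 common regions lay on chromosome X, where 3 regions would be a share of 0.775%. A common region needs a Foxa3-line peak, and that list had only 6 there. The absence thus follows largely from the Foxa3 count and is not a further result. Of the 582 regions of the Foxa1 and Foxa2 lines, which hold no Foxa3-line peak by definition, 12 lay there.

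**Figure D5:**
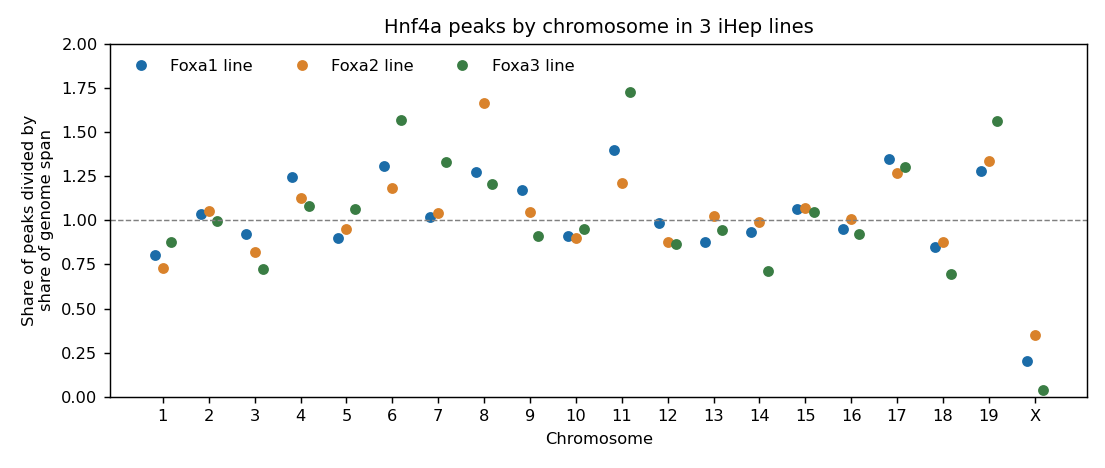
Share of a line's Hnf4a peaks on each chromosome divided by the chromosome's share of the summed lengths, where 1 (dashed) is an even spread and chromosome Y is left out. The 3 lines move together over most chromosomes, the Foxa2 line is highest on chromosome 8 (1.67), the Foxa3 line is above both others on chromosomes 6, 7, 11 and 19 (1.57, 1.33, 1.73 and 1.56) among others, and all fall low on chromosome X.

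Peaks also gathered in local runs. A run was taken as at least 5 peaks of a list with gaps of up to 10 kb, a rule chosen after the values were seen. Runs held 33 peaks of the Foxa1 line (4 runs, 2.09% of peaks), 95 of the Foxa2 line (6 runs, 3.82%) and 208 of the Foxa3 line (29 runs, 8.30%). Joined over the lines they made 34 stretches, of which 1 held 5 or more peaks in every line, 3 in 2 lines and 30 in 1 line.

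The run with the most peaks was on chromosome 8 at 126062055 to 126147978, a stretch of 85.9 kb. It held 41 Hnf4a peaks in the Foxa2 line, 3 in the Foxa1 line and 1 in the Foxa3 line, and no peak of any Foxa list or 48-hour Hnf4a list. The 41 peaks were low in the Foxa2 list, with a median score of 10.2, where 9.83 bounds the lowest 25% of the list and 12.99 is its median, and a best rank of 559 of 2485. They made up 41 of the 206 peaks that the Foxa2 line had on chromosome 8.

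A pair of neighbouring runs on chromosome 6 was held by all lines to unlike degrees. From 47603866 to 47636360 the Foxa1 line had 8 peaks, the Foxa2 line 18 and the Foxa3 line 12. From 47687249 to 47727183 there were 12, 12 and 4. Peaks were widest in the Foxa2 line, with medians of 649.5 and 989.5 bp in the first and second stretch against 311.5 and 275.5 bp in the Foxa1 line. The iHep Foxa lists held at most 1 peak each in either stretch. The 48-hour Foxa1 list held 3 in each, the 48-hour Foxa2 list 1 in each, and the 48-hour Foxa3 list 0 and 1.

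Of the 29 stretches with a run of the Foxa3 line, 25 held at least 1 iHep Foxa3 peak and 9 held 5 or more. Single Foxa3-line peaks overlapped one of the 12661 iHep Foxa3 peaks in 38.1% of cases. A stretch with at least 5 Hnf4a peaks thus meets 1 easily, and no share for like stretches was computed. The count is therefore not read as a trait of runs. On chromosome 6 at 52173617 to 52207909 the Foxa3 line had 28 Hnf4a peaks and 29 iHep Foxa3 peaks, while the Foxa1 and Foxa2 lines had 0 Hnf4a peaks and the iHep Foxa1 and Foxa2 lists 0 and 1 peaks. On chromosome 15 at 102780358 to 102796363 it had 11 Hnf4a and 4 iHep Foxa3 peaks, and on chromosome 11 at 120091608 to 120099556 it had 9 of each, again with 0 Hnf4a peaks in the other lines. The iHep Foxa2 list had 1 and 2 peaks there, and the iHep Foxa1 list 0 and 1. In all, 13 of the 29 stretches with a run of the Foxa3 line held no Hnf4a peak of the others. The counts were 1 of 6 for the Foxa2 line and 0 of 4 for the Foxa1 line. For scale, 74.1% of all 4813 regions were held by 1 line. The reverse was seen on chromosome 9 at 34880138 to 34897907, with 6, 11 and 0 Hnf4a peaks in the Foxa1, Foxa2 and Foxa3 lines.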

How the data were processed

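The authors deposited a list of peaks for each sample, with chromosome, start, end, name and a score, and what the score is was not stated in the labels or headers. Tools named in the submitters' processing notes, without a role, are BWA 0.6.2, MACS2 2.1.0 and bedtools 2.16.2, with the genome build mm9. Whether an input library was used in peak finding is not given there, and input libraries were not analysed here. Titles and characteristics gave the stage, line and antibody of each sample, with 1 library per group. Peaks were matched by overlap of at least 1 bp and merged into regions, with the highest score kept for each list. Overlap counting was checked on simulated peaks. Alternatives were stricter or looser matching, fixed windows, shorter lists, removal of dense blocks (chains of at least 5 peaks with gaps up to 2 kb in every 48-hour Hnf4a list, with 10 kb on each side), joining within 500 bp and autosomes only. Removal of runs was added after the values were seen. Members, rules and alternatives were chosen with earlier results of these data known. Regions named by rule were the 5 best by summed rank of all 3 lines, the top 3 peaks of each list and the 3 best of each pair and of each line alone. The text prints some of these. Runs, which fall outside that rule, were chosen after their values were seen. Values were computed with pandas 2.3.3 and SciPy 1.17.1 (NumPy 2.4.6) under Python 3.11.15, and figures were drawn with matplotlib 3.10.9.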

Additional observations from a re-analysis of the deposited data

How the results depend on the processing

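Of 89 recomputed values of the main results, 69 stayed within the 95% interval of the reported value and 20 moved beyond it. For the count of common regions the bound was 1.5 times instead, so 266 with lists of equal length, against 387, counts as staying. The intervals cover counting error within 1 library, so these counts do not measure spread between replicates. With peak centres within 200 bp, 59.1% of Foxa1-line peaks lay at the Foxa2 line, 22.2% at the Foxa3 line, and 15.1% of Foxa2-line peaks at the Foxa3 line. The shares at iHep Foxa3 were then 31.0% for Foxa3-only and 9.30% for common regions. With an overlap of 50% of the shorter peak, 21.4% of Foxa1-line and 17.2% of Foxa2-line peaks lay at the Foxa3 line, and with fixed windows of 500 bp 33.3% and 25.6%. With lists of equal length, 52.2% of Foxa1-line peaks lay at the Foxa2 line and 22.97% at the Foxa3 line. The median width was then 398.5 bp in the Foxa2 line and 214 bp in the Foxa3 line, and 1.71% and 23.9% of their peaks had a neighbour within 500 bp. Without runs these neighbour shares were 1.56% and 27.6%. Joining peaks within 500 bp gave a median width of 218 bp in the Foxa3 line. The upper 50% of the lists gave 169 common regions, and common regions alone gave a rho of 0.44 for the Foxa1 and Foxa2 lines. Fewer peaks enter the equal and upper lists by construction, and for the other settings the cause was not tested. Of 33 further values, for the reverse shares and for peaks in runs, 9 moved, all of them reverse shares. Unknown depth limits any reading of list lengths. No paired analysis was possible because each group is 1 library and no test was made.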
